A study of Bos taurus with 8 samples.

Results

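Aquaporins are membrane channels for water, and AQP1, AQP3, AQP4 and AQP5 are the members best known from mammalian lung. All non-control probes of the arrays whose accession matched one of these 4 symbols were taken, which gave 12 of the 43653 probes measured: 2 for AQP1, 2 for AQP3, 6 for AQP4 and 2 for AQP5. Lung total RNA came from Holstein calves, one array per animal. The clone group was 4 cloned animals with respiratory failure that died in the first days after birth, and the normal group was 4 healthy, naturally conceived animals, with an age of 4 days given for all 8. Clone tissue was taken after death and normal tissue from animals that were slaughtered. Donor cell line, sex and the exact age of each clone at death were not given in the sources used here, and neither group was labelled with a treatment or a genetic change.

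Before birth the alveoli are filled with fluid, and around birth the epithelium turns from secreting chloride and fluid to absorbing sodium, with water following by osmosis through channels and between cells. In mammalian lung AQP1 is known from the endothelium of capillaries and also from red blood cells, AQP3 from the basal cells of the airways, AQP4 from the basolateral membrane of airway epithelial cells, and AQP5 from the apical membrane of alveolar type I cells and of submucosal glands. AQP3 also passes glycerol. These sites were described mainly in mice, rats and humans.

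The 8 arrays carried the dye Cy3, and each value below is a log2 processed signal relative to the 75th percentile of its own array. Levels of different probes depend on the probe and are not set against each other. The share of spots flagged as well above background ran from 78.8% to 80.6% among clones and from 80.4% to 83.5% among normal animals, and no spot was saturated. All clones lay on one slide and all normal animals on the other, so slide and group cannot be told apart. The spike-in RNAs were on average 0.68 higher on the clone arrays on this scale, so a change common to all lung transcripts is not measured. The Y-linked transcripts DDX3Y and USP9Y stood well above background in clones 2, 3 and 4, but not in clone 1 or in any normal animal, while the probe for ZFY did so in all 8. The labels give no sex, and the part of sex in the differences between the groups was not tested. As a check of the tissue, the surfactant protein transcript SFTPC, a marker of the surfactant-making alveolar cells, averaged 7.78 ± 0.23 in clones and 7.74 ± 0.10 in normal animals (SD, n = 4 each).

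All 4 aquaporins were detected in all 8 lungs, and every one of their 12 probes had a lower mean in the clones, although 3 of them, the brightest of AQP1, AQP4 and AQP5, lay above the median of all probes under normexp with 75th percentile centring. The size of the difference varied widely, from 4 AQP4 probes, above background in every animal, that were 9.77-fold to 12.1-fold lower in clones to the brightest AQP5 probe, which was 1.20-fold lower. For these AQP4 probes the size depended on background correction: with normexp and quantile normalization their log2 changes were smaller, between -2.61 and -1.85. No probe reached an adjusted p of 0.05 (limma, Benjamini-Hochberg over 35636 probes), a threshold that 0.177% of all tested probes passed, and the lowest adjusted p among the 12 was 0.0625. An unadjusted p under 0.05 with a lower clone mean was found for 8 of the 12, against 7.10% of all tested probes. Every clone lay below every normal animal for 6 of the 12, against 5.37% of all tested probes. A negative log2 change was found for 52.1% of all tested probes. Of those 6 probes 5 belonged to AQP4 and 1 to AQP3. One of each gene, A_73_P345971 and A_73_P263201, is counted here and among the 8 although it met the filter on dim probes through the normal animals, where it was higher, so the counts are a description and support nothing. Also, the probes of one gene were matched to the same transcript, so they are not 12 separate observations. Taking only the brightest probe of each gene, all 4 had a negative log2 change, 1 had an unadjusted p under 0.05 (AQP3) and 0 separated the groups. RNA was taken from whole lung tissue, so fewer cells of a type and less RNA per cell cannot be told apart.

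**Figure D1:**
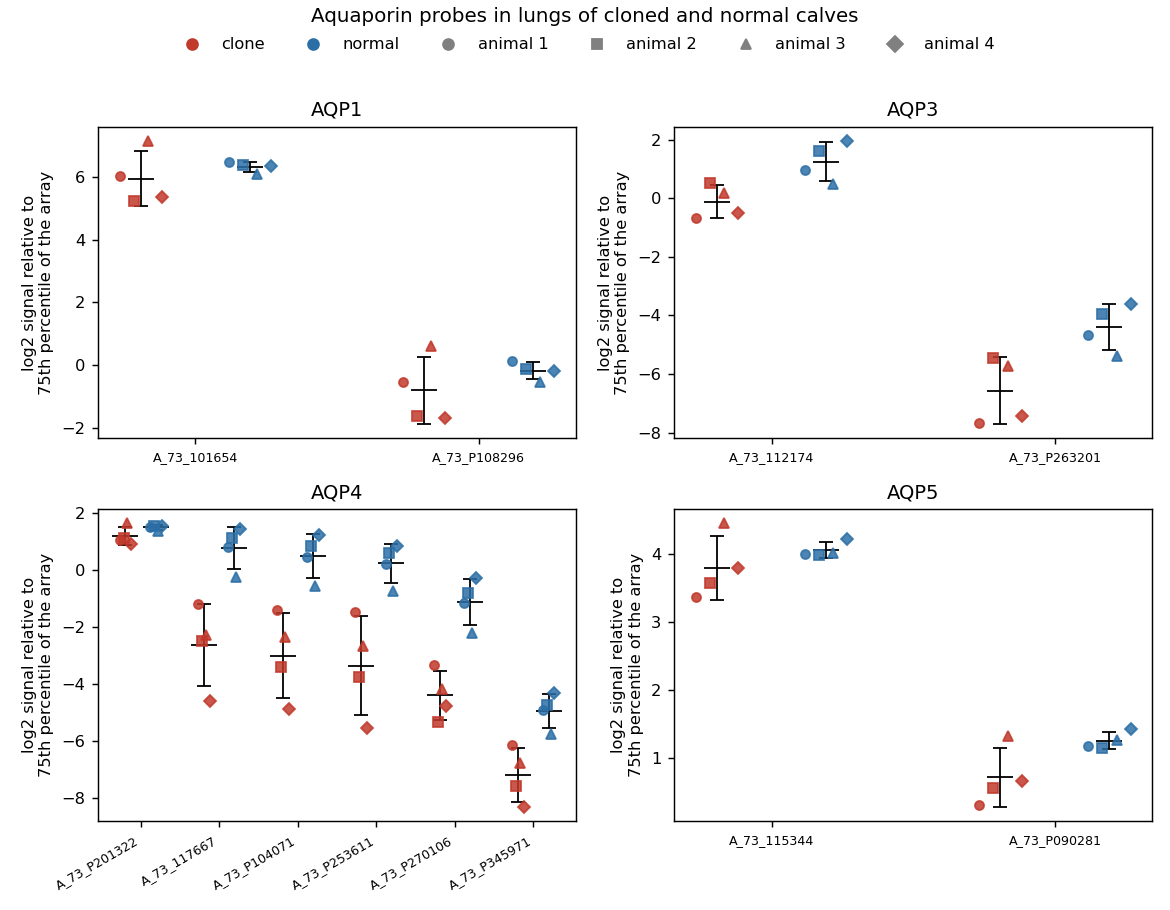
Log2 signal relative to the 75th percentile of the array for each aquaporin probe, with one panel per gene, clones in red left of normal animals in blue, one symbol per animal, and bars for the mean and SD (n = 4 each). The groups are separated for 5 of the 6 AQP4 probes and for the dimmer AQP3 probe, and they overlap for the probes of AQP1 and AQP5.

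**Figure D2:**
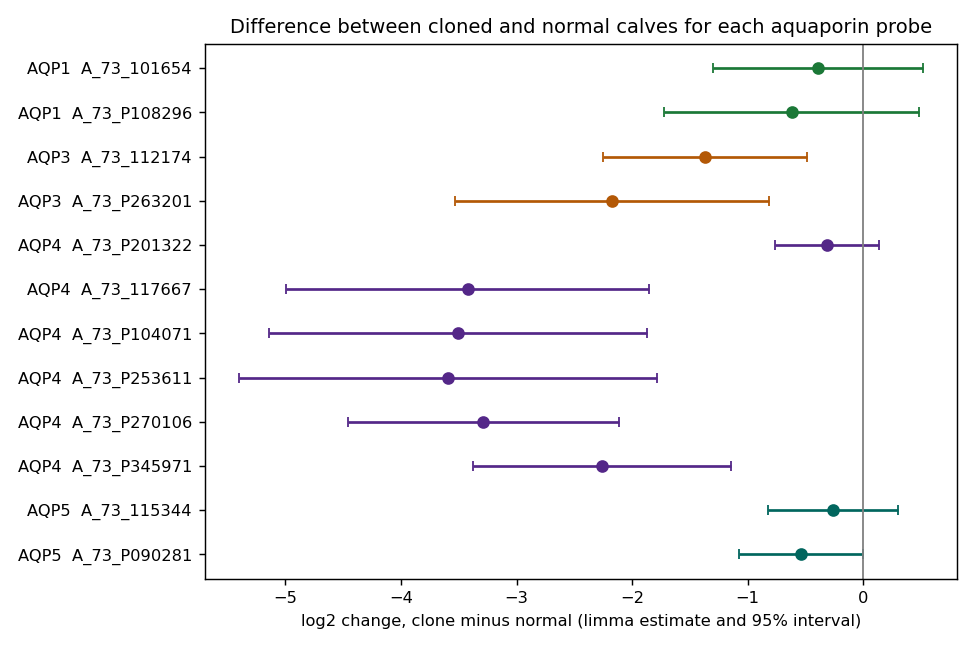
Log2 change between clones and normal animals for the 12 probes, with the 95% interval of the limma fit. All 12 estimates are below 0 (3 of them, the brightest of AQP1, AQP4 and AQP5, are above the median of all probes under normexp with 75th percentile centring), and the interval includes 0 for both AQP1 probes, the brightest AQP4 probe and the brightest AQP5 probe.

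AQP4, the channel of the basolateral airway membrane, was represented by 6 probes to the RefSeq transcript NM_181003, and they did not agree on the size of the difference. The probe A_73_117667 measured -1.19, -2.48, -2.26 and -4.61 in clones 1 to 4, against 0.80, 1.13, -0.24 and 1.46 in normal animals 1 to 4. The groups did not overlap, and clone 1 was the highest clone and clone 4 by far the lowest. The clone level was 0.0932 times the normal level (log2 change -3.42, SE 0.69, 95% interval -4.99 to -1.86, adjusted p = 0.111, limma).

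The probes A_73_P104071, A_73_P253611 and A_73_P270106 gave like values. A_73_P104071 lay between -4.88 and -1.38 in clones and between -0.56 and 1.23 in normal animals, with a log2 change of -3.50 (SE 0.72, adjusted p = 0.119). A_73_P253611 lay between -5.55 and -1.46 in clones and between -0.72 and 0.86 in normal animals, with a log2 change of -3.59 (SE 0.79, adjusted p = 0.133). A_73_P270106 had the lowest adjusted p of all aquaporin probes: it measured -3.32, -5.32, -4.16 and -4.79 in clones 1 to 4, against -1.17, -0.79, -2.19 and -0.29 in normal animals 1 to 4 (log2 change -3.29, SE 0.51, 95% interval -4.46 to -2.12, adjusted p = 0.0625). On this probe clone 2, not clone 4, was the lowest animal. The dimmest probe, A_73_P345971, had a log2 change of -2.26 (SE 0.49, adjusted p = 0.129), but only 1 of 4 clones had it well above background, against 4 of 4 normal animals, so the size of its difference is limited by background.

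The brightest AQP4 probe, A_73_P201322, showed a much smaller difference. It measured 1.07, 1.13, 1.64 and 0.91 in clones 1 to 4, against 1.53, 1.57, 1.37 and 1.54 in normal animals 1 to 4. Clone 3 was the highest of all 8 animals, so the groups overlapped, and the log2 change was -0.32 (SE 0.20, 95% interval -0.76 to 0.13, adjusted p = 0.549). A comparison of 2 probes within the same array does not depend on how arrays are scaled. Relative to its mean over the normal animals, the brightest probe stood above A_73_117667 by 1.54, 2.90, 3.19 and 4.80 in clones 1 to 4, against 0.012, -0.28, 0.90 and -0.63 in normal animals 1 to 4. The gap between the 2 probes was larger in every clone than in any normal animal. Which part of the transcript each probe covers was not analysed here, so the data do not settle which of the probes follows AQP4 most closely. The mean of all 6 probes gave a log2 change of -2.73 (adjusted p = 0.106, limma). That mean joins probes that did not agree in size, and it includes A_73_P345971, which only 1 of 4 clones had well above background.

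**Figure D3:**
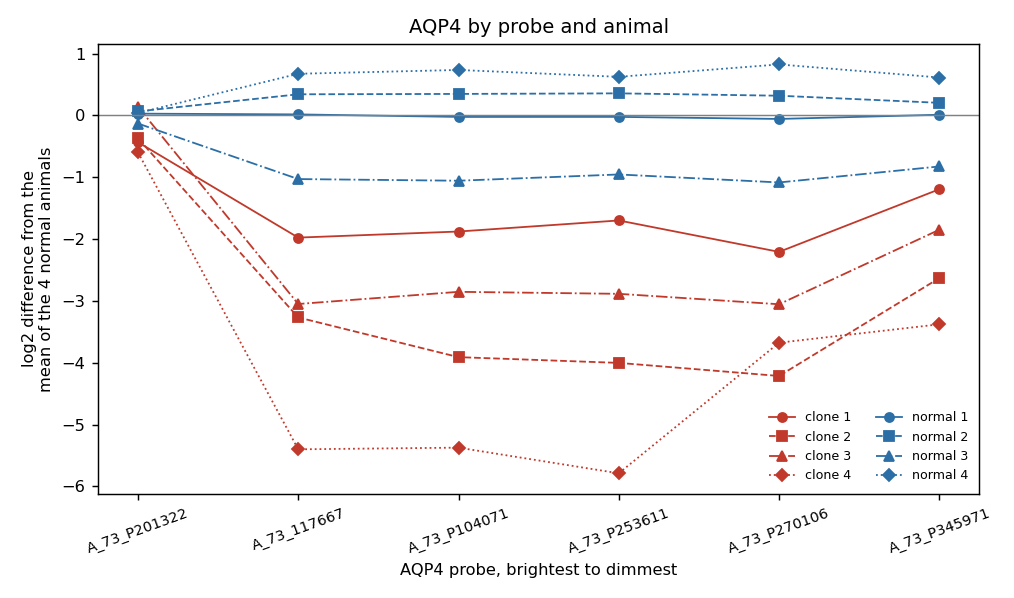
Log2 difference of each animal from the mean of the 4 normal animals for the 6 AQP4 probes, ordered from brightest to dimmest, with clones in red and normal animals in blue. On the brightest probe all animals lie close to 0, and on the other 5 the clones lie below every normal animal, with clone 1 nearest to them.

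Among normal animals, normal 3 had the lowest value on all 6 AQP4 probes, and normal 4 the highest on the 5 probes other than A_73_P201322. Among the clones, clone 1 was nearest to the normal animals on those 5 probes. Without clone 1 the 4 of them that were above background in every animal passed the threshold, with log2 changes between -4.23 and -3.65 and adjusted p between 0.0135 and 0.0232 (limma). A_73_P345971 also passed, but none of the remaining clones had it well above background, so that difference was not measured on both sides. In that comparison of 3 clones with 4 normal animals, 2562 of all 35636 probes passed, against 63 with all animals. It also set 3 clones with signal of the Y-linked DDX3Y against normal animals without it. The part of sex was not tested here or with all animals, where 3 of 4 clones had that signal. Among the other genes described here, AQP7, MIP, SLC5A3, HOPX, SNAI2, BPIFB1, SLC2A3, CA4, AKR1C4 and SCGB2A2 passed without clone 1 and with no other single animal left out, with adjusted p between 0.000601 and 0.0474. Of the clones left in that comparison, only clone 3 had AQP7 well above background and only clone 2 had MIP so. The sizes of the AQP7 and MIP differences are thus limited by background. No other omission of a single animal brought any of the 12 probes past the threshold.

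AQP3, the water and glycerol channel of airway basal cells, was measured by 2 probes to NM_001079794. The brighter probe, A_73_112174, measured -0.67, 0.50, 0.19 and -0.50 in clones 1 to 4, against 0.95, 1.60, 0.48 and 1.96 in normal animals 1 to 4. Clone 2 lay just above normal 3, and otherwise the groups were apart. The difference was 2.58-fold (log2 change -1.37, SE 0.39, 95% interval -2.25 to -0.48, unadjusted p = 0.0069, adjusted p = 0.204, limma). The dimmer probe, A_73_P263201, measured -7.68, -5.46, -5.72 and -7.42 in clones 1 to 4, against -4.67, -3.95, -5.37 and -3.60 in normal animals 1 to 4. Its groups did not overlap (log2 change -2.18, SE 0.60, adjusted p = 0.195), but only 2 of 4 clones had it well above background, so its size is limited by background. Both probes ranked the animals alike: clones 2 and 3 were above clones 1 and 4, and normal animals 2 and 4 were above normal animals 1 and 3. On the dimmer probe clones 1 and 4 were not well above background, so their place there is limited by background.

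AQP5, the apical channel of alveolar type I cells, differed little on its brighter probe. A_73_115344, which matched NM_001191160, measured 3.37, 3.58, 4.45 and 3.79 in clones 1 to 4, against 4.01, 3.98, 4.02 and 4.23 in normal animals 1 to 4. Clones 1, 2 and 4 lay below all normal animals and clone 3 above them. The log2 change was -0.26 (SE 0.25, 95% interval -0.82 to 0.30, adjusted p = 0.707, limma), an interval that includes differences of up to 0.82 in the direction of the other aquaporins. It was -0.48 without clone 3 (adjusted p = 0.145), -0.12 without clone 1 and -0.41 with quantile normalization. The dimmer probe, A_73_P090281, measured 0.30, 0.55, 1.32 and 0.65 in clones 1 to 4, against 1.17, 1.14, 1.26 and 1.42 in normal animals 1 to 4. Its log2 change was -0.54 (SE 0.24, 95% interval -1.08 to -0.0038, unadjusted p = 0.0487, adjusted p = 0.377), with the same animals low and clone 3 within the normal range on this probe.

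AQP1, the channel of capillary endothelium and red cells, had no difference that exceeded the spread among the clones. Its brighter probe, A_73_101654 (NM_174702), measured 6.01, 5.21, 7.14 and 5.36 in clones 1 to 4, against 6.46, 6.38, 6.10 and 6.34 in normal animals 1 to 4. Clones 1, 2 and 4 were below all normal animals while clone 3 was above all of them, and the log2 change was -0.39 (SE 0.40, 95% interval -1.30 to 0.52, adjusted p = 0.734, limma). This value depended on single clones: it was -0.80 without clone 3 (adjusted p = 0.110) and -0.15 without clone 2, and it was -0.75 with quantile normalization. The dimmer probe, A_73_P108296, measured -0.53, -1.61, 0.61 and -1.67 in clones 1 to 4, against 0.12, -0.12, -0.53 and -0.19 in normal animals 1 to 4 (log2 change -0.62, SE 0.48, adjusted p = 0.642). It placed the 4 clones in nearly the same order, with clones 2 and 4 low and clone 3 high.

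The clones varied in different ways for different aquaporins. Clone 3 had the highest AQP1 and AQP5 of all 8 animals on the brighter probes, while clone 4 had the lowest AQP4 on A_73_117667 and clone 1 the lowest AQP3. The SD was larger among clones than among normal animals for 11 of the 12 probes. Over all tested probes this was so for 90.0%, so a wider spread was general on the clone arrays. For the brighter AQP1 probe the SD was 0.88 among clones and 0.16 among normal animals.

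Differences between members within the same animal do not depend on the scaling of the arrays either, and are given without a test. Relative to the mean of the normal animals, AQP3 stood against AQP5 at -1.23, -0.26, -1.45 and -1.48 in clones 1 to 4, and at -0.25, 0.43, -0.72 and 0.54 in normal animals 1 to 4, on the brighter probes. Clones 1, 3 and 4 were below all normal animals and clone 2 was within their range. AQP5 stood above the AQP4 probe A_73_117667 by 1.29, 2.79, 3.44 and 5.13 in clones 1 to 4, against -0.069, -0.42, 0.99 and -0.50 in normal animals 1 to 4, with no overlap. AQP1 against AQP5 lay between -0.69 and 0.43 in clones and between -0.18 and 0.19 in normal animals, a range of the clones that holds all normal animals.

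**Figure D4:**
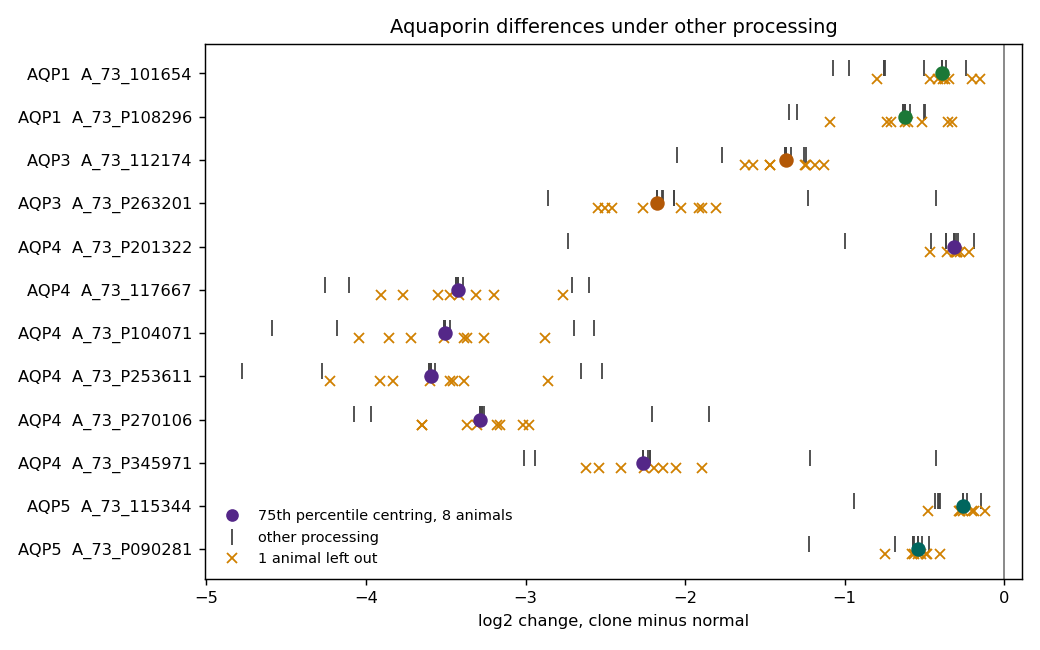
Log2 change of each aquaporin probe between clones and normal animals under 75th percentile centring (filled circles), under other processing (vertical ticks) and with 1 animal left out (crosses). On the row of each gene's brightest probe, a tick also marks the mean of all tested probes of that gene. For AQP4 that tick lies at -2.73 and is not a value of the brightest probe. All values lie below 0 when not taken relative to the median of all probes. Under normexp with 75th percentile centring that median is lower than 3 of the probes. The size of the difference depends on the processing for every gene. For the brighter AQP1 probe it lies between -1.07, centred on the spike-ins, and -0.24, with normexp and 75th percentile centring.

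The sign was negative for all 12 probes with any 1 animal left out and under each processing alternative in which they were tested. A_73_P263201 and A_73_P345971 could not be tested with the filter on all 8 arrays. Some alternatives moved all probes together, and the differences below are then relative to the median of all tested probes. Centring on the spike-ins put that median at -0.70, and relative to it the log2 change was -0.37 for AQP1, -1.35 for AQP3 and -0.24 for AQP5 on their brighter probes and -3.40 for A_73_117667 of AQP4. With normexp background correction and 75th percentile centring the median was -0.32, and relative to it the brightest probes of AQP1, AQP4 and AQP5 were at 0.083, 0.13 and 0.18, above the median, while AQP3 was at -0.92 and A_73_117667 at -2.39. Relative to the median, the sign of these brightest probes of AQP1, AQP4 and AQP5 thus turned under this setting. That of AQP3 and of A_73_117667 did not. The dimmer probes of AQP1 and AQP5 also stayed below the median, at -0.18 and -0.15. The dim probes lost most of their size with normexp and quantile normalization, where A_73_P263201 of AQP3 had a log2 change of -0.43 and A_73_P345971 of AQP4 also one of -0.43. The 4 AQP4 probes above background in every animal also shrank in this setting, to -2.61 for A_73_117667, -2.57 for A_73_P104071, -2.52 for A_73_P253611 and -1.85 for A_73_P270106.

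Of the other aquaporins, 4 had a matched probe, and 3 of these had one that was tested. AQP7, an aquaglyceroporin known from fat cells, had a log2 change of -1.63 (SE 0.40, adjusted p = 0.169, limma) on its brighter probe, for which 2 of 4 clones and 4 of 4 normal animals were well above background. It is the gene next to AQP3 in the assembly ARS-UCD2.0. MIP, the lens aquaporin, had a log2 change of -1.22 (SE 0.35, adjusted p = 0.208), with the same numbers of animals well above background. AQP2, the vasopressin-regulated channel of the kidney, was well above background in all 8 lungs, with log2 changes of -0.32 and -0.56 on its 2 probes (adjusted p = 0.669 and 0.435). AQP11, an intracellular aquaporin, cleared the background in 0 clones and 2 normal animals and was not tested, nor was the second AQP7 probe, which was not well above background in any animal. AQP6, AQP8, AQP9, AQP10 and AQP12 were not matched to a probe, and 20161 probes had no gene symbol, so probes for them may be among those.

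The transporters that move the salt which water follows gave no called gene either. Among 15 measured genes of sodium absorption, 9 were lower and 6 higher in clones, and their median log2 change was -0.32, against -0.016 over all 9867 genes. None passed the threshold by limma. The epithelial sodium channel subunits SCNN1B and SCNN1G had log2 changes of -1.62 and -0.85 (adjusted p = 0.196 and 0.341). Unadjusted p-values under 0.05 were reached by 3 of the 15, SCNN1B and SCNN1G among them, all lower in clones, where 7.10% of all tested probes were. Of 6 genes of chloride and fluid secretion, 4 were higher, and the median log2 change was 0.020. The chloride channel ANO1 was at 1.09 (adjusted p = 0.173), with all clones above all normal animals, although with normexp background correction and 75th percentile centring it was at -0.18. The channel CFTR was at -0.77 (adjusted p = 0.414).

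Genes that respond to osmotic stress were few on the arrays. The median log2 change of the 4 measured was 0.44, and 3 were higher in clones. SLC5A3, the sodium-coupled importer of the osmolyte myo-inositol, was at 1.50 (SE 0.29, adjusted p = 0.106), with every clone above every normal animal. Of 8 genes listed as partners or regulators of aquaporins, 4 were higher and 4 lower, with a median of -0.033. TRPV4, a calcium channel that opens on cell swelling, was at -0.89 (adjusted p = 0.321). By limma 0 genes of these 2 lists passed the threshold, while 3 of their 12 genes reached an unadjusted p under 0.05, against 13.2% of all tested probes.

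Markers of the cell types that carry the channels were summarised by the mean over each list, per animal. Their part in the aquaporin differences was not tested. Beside AQP4, all 9 measured markers of ciliated airway cells were lower in clones (median log2 change -0.86), with list means between -1.61 and -0.53 in clones and between -0.88 and 0.032 in normal animals. Among them RSPH1 and CCDC113, parts of the cilium, were at -1.33 and -1.42 (adjusted p = 0.249 and 0.276). Of 5 markers of airway secretory cells 4 were lower in clones (median -1.81), with list means between -0.87 and 2.34 in clones and between 0.86 and 2.40 in normal animals. The club cell protein SCGB1A1 was at -1.81 and the mucosal defence protein BPIFB1 at -2.26 (adjusted p = 0.202 and 0.238). Clone 1, the clone with the highest A_73_117667 signal, had the lowest mean of the ciliated cell list and the highest of the secretory cell list among clones.

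Beside AQP3, 8 of 10 markers of airway basal cells were higher in clones, opposite to AQP3, and the median log2 change was 0.29. Their list means lay between -0.55 and 0.17 in clones and between -0.74 and -0.39 in normal animals. The basal keratin KRT5 was at -0.97, well above background in 3 of 4 clones, and the transcription factor SNAI2 at 1.10 (adjusted p = 0.586 and 0.340). Beside AQP5, 6 of 12 markers of alveolar type I cells were higher and 6 lower, with a median of 0.0087, and list means between 0.61 and 1.34 in clones and between 0.93 and 1.24 in normal animals. The homeodomain protein HOPX was at -1.18 (adjusted p = 0.119), with all clones below all normal animals, and the membrane protein podoplanin, PDPN, at 0.98 (adjusted p = 0.357). Markers of alveolar type II cells had a median of -0.00076 over 8 genes.

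Beside AQP1, 7 of 11 endothelial markers were lower in clones (median log2 change -0.10, but 0.19 without clone 1 and -0.48 without clone 3), with list means between 0.94 and 2.67 in clones and between 2.16 and 2.57 in normal animals. Clone 3 had the highest endothelial mean as well as the highest AQP1, but clone 1 had the lowest endothelial mean and, among clones, the second highest AQP1. Of 9 erythroid markers 8 were higher in clones (median 0.21, between 0.063 and 0.68 with 1 animal left out), with list means between -2.18 and 0.17 in clones and between -2.32 and -1.05 in normal animals. The haem synthesis enzyme ALAS2 was at 1.25 (adjusted p = 0.601). Clone 1 had the highest erythroid mean and clone 2 the lowest among clones.

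The other lists are given by their size and median only. Median log2 changes were 0.15 for 3 markers of submucosal gland cells, 0.19 for 6 genes shared by airway epithelia, 0.37 for 4 mesothelial markers, -0.11 for 6 muscle genes, -0.45 for 6 glucocorticoid targets and 0.70 for 10 genes induced by low oxygen. The glucocorticoid target FKBP5 was at -1.69 (adjusted p = 0.441), and the glucose transporters SLC2A3 and SLC2A1 at 2.22 and 1.28 (adjusted p = 0.131 and 0.141, limma). No gene of any list passed the threshold.

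The genes whose profile over the 8 animals came nearest to each aquaporin were found by the root mean square difference of log2 values, after subtraction of each gene's own mean, among 9077 genes well above background in all animals. This is a description, and with 8 animals near profiles arise among genes of many kinds. For A_73_117667 of AQP4 the nearest were CA4, ACSM1 and AKR1C4, at differences of 0.71, 0.77 and 0.79. CA4, the membrane carbonic anhydrase of lung capillaries, measured 2.64, 0.64, 1.94 and 0.21 in clones 1 to 4, against 4.74, 4.19, 2.98 and 3.91 in normal animals 1 to 4. It shared with A_73_117667 the order of the clones, with clone 1 highest and clone 4 lowest, and normal 3 as the lowest normal animal. A gene chosen for a near profile is likely to share such an order. The log2 change of CA4 was -2.60 (adjusted p = 0.136, limma). ACSM1, a medium-chain acyl-CoA synthetase, was the only one of the genes named as near that passed the threshold (log2 change -2.69, adjusted p = 0.0130, limma). That call was lost without normal 1, 2 or 4, at adjusted p between 0.0645 and 0.0656, and with normexp and 75th percentile centring, at 0.110, while the log2 change stayed between -2.64 and -2.47. AKR1C4, an aldo-keto reductase, was at -3.87 (adjusted p = 0.127).

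For the brightest AQP4 probe the nearest genes were GGTA1, RAP1B and DCAF4, at 0.058, 0.062 and 0.067, none of them shared with A_73_117667. For AQP3 they were ARRDC2, KCNJ11 and SCGB2A2, at 0.30, 0.33 and 0.36, with log2 changes of -1.23, -1.08 and -1.39 (adjusted p = 0.236, 0.182 and 0.119). For AQP5 they were ABHD17B, AQP2 and TCN2, at 0.078, 0.10 and 0.10. AQP2 is the gene next to AQP5 in the same assembly, with AQP6 on the other side, and both AQP2 and AQP5 had their highest value in clone 3. For AQP1 they were TMEM50B, TSSC4 and PEDS1, at 0.11, 0.13 and 0.15.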

How the data were processed

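Each array file was written by Agilent Feature Extraction 10.7.3.1, per the file headers, and the submitters' processing notes name version 10.7. The measure taken from each deposited file was the spot's processed intensity, already corrected for background and not normalized between arrays by the authors, and the program's flags for spots well above background. The authors' deposited value table holds log2 values whose columns all have a 75th percentile of 10.54, so they were made alike by a step not given in the sources used here, and it served only as an alternative.

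Control and outlier-flagged spots were left out. The 75th percentile of an array was subtracted from its log2 intensities, and spots of the same probe were averaged. Testing required a flag of well above background on 4 or more of the 8 arrays, which kept 35636 of 43653 probes. Gene symbols came from RefSeq accessions matched to a table of the assembly ARS-UCD2.0, and 23492 probes obtained one. No coordinates are given, since the array was designed on another build (Btau_3.1). Groups, taken from the sample titles, were compared 2-sided by the lmFit and eBayes functions of limma 3.58.1 (R 4.3.3), with Benjamini-Hochberg adjustment over all tested probes and a threshold of 0.05. A gene's brightest probe by mean over the 8 arrays represents it, and all aquaporin probes are given. The normexp alternatives used median spot and background intensities with an offset of 50. The fit was also run on simulated data with the same SD in both groups. The spread of these data was wider among clones, so nothing is drawn from that run here. With 4 animals a group the number of arrays limits the precision. The p-values set the difference between the groups against the spread between these animals. Any difference between the slides is part of the difference between the groups.

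The aquaporins and the gene lists were chosen with earlier results of these data known, so no list was tested. Named genes are all aquaporins on the arrays, up to 4 genes of each list with the smallest p, SFTPC, and the 3 genes nearest in profile to each aquaporin (for AQP4 to 2 of its probes). One gene that this rule names is not reported here. SFTPC and the second AQP4 probe were added to that rule after values were seen.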

Additional observations from a re-analysis of the deposited data

Results flagged for a closer look

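Of 98 groups of 4 animals examined, 7 held a value standing apart from the other 3, and chance gives about 1 in 20. For AQP5 on A_73_115344, normal 4 measured 4.23, above the other normal animals. TRPV4 measured -0.49 in normal 4, CCDC113 -0.39 and ACSM1 2.71 in normal 3, SLC2A3 1.88 in clone 1, and SFTPC 7.45 and RAP1B 3.09 in clone 3 (log2 relative to the 75th percentile), each apart from the other 3 animals of its group.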

How the results depend on the processing

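Across 19 alternatives the count of changed probes ranged widely, from 63 with 75th percentile centring to 60 with quantile normalization or the authors' table, 10230 centred on the spike-ins (66 higher and 10164 lower), 0 with normexp and 75th percentile centring (2278 at an unadjusted p under 0.05), 17 when probes had to be above background on all 8 arrays, 25 with normexp and quantile normalization, 146 with trend and robust settings, 11147 with array weights, and between 17 and 2562 with 1 animal left out. Centred on the spike-ins, which lowers all probes, 10 aquaporin probes passed the threshold, with log2 changes of -2.05 for A_73_112174, -2.86 for A_73_P263201, -0.996 for A_73_P201322, -4.10 for A_73_117667, -4.18 for A_73_P104071, -4.27 for A_73_P253611, -3.97 for A_73_P270106, -2.94 for A_73_P345971, -0.94 for A_73_115344, -1.22 for A_73_P090281. With array weights all 12 passed, at -0.97 for A_73_101654, -1.35 for A_73_P108296, -1.37 for A_73_112174, -2.14 for A_73_P263201, -0.46 for A_73_P201322, -4.26 for A_73_117667, -4.59 for A_73_P104071, -4.78 for A_73_P253611, -4.07 for A_73_P270106, -3.01 for A_73_P345971, -0.42 for A_73_115344, -0.68 for A_73_P090281. These counts of 10 and 12 stand beside 10230 and 11147 of all 35636 tested probes that passed under the same settings. Both include A_73_P263201 and A_73_P345971, which met the filter on dim probes through the normal animals, so the counts are a description and support nothing. With trend and robust settings, where 146 of all probes passed, A_73_P270106 did so at -3.29 (adjusted p = 0.0474, limma). With 1 animal left out the log2 change ranged from -3.91 to -2.76 for A_73_117667, from -4.05 to -2.88 for A_73_P104071, from -4.23 to -2.86 for A_73_P253611, from -3.65 to -2.98 for A_73_P270106, from -2.62 to -1.89 for A_73_P345971, and of these omissions they passed only without clone 1, where A_73_P345971 was above background in none of the clones left. The median of the lists for chloride and fluid secretion, aquaporin partners, alveolar type I and type II cells, shared airway epithelium, endothelium and muscle lay on both sides of 0 over these omissions. Animals with the same number shared only the number (correlations of their deviations between -0.22 and 0.099, and 1 of 4 clones correlated best with its own number), and with the replicate number as a block 13 probes were called and A_73_P270106 had an adjusted p of 0.269 and ACSM1 one of 0.0972, at unchanged log2 changes. Signs turned for SFTPC, to -0.64 centred on the spike-ins, -0.32 with quantile normalization and in the authors' table, -0.33 with normexp and quantile normalization and between -0.014 and 0.15 with 1 animal left out (negative without clone 1); for ABHD17B, to 0.017 with the mean of its probes, and between -0.35 and 0.012 with 1 animal left out (positive without clone 1); for TSSC4, 0.12 without clone 2 and 0.033 without clone 4, in a range from -0.55 to 0.12; and for ANO1, to -0.18 with normexp and 75th percentile centring. The cause of these shifts was not tested. The slide could not be a block, since each group lay on a slide of its own. Dim probes are limited by background.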
